A study of Mus musculus with 13 samples.

Results

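The 37 genes of the mouse mitochondrial genome were described across 13 RNA-seq libraries of brain. All mice were male Balb/c, aged 6 to 8 weeks. They were taken as all genes whose symbol begins with mt-, and made up 37 of the 37636 gene IDs in the deposited table. The set holds 13 mRNA genes, 2 rRNA genes and 22 tRNA genes. The Con group (n = 4 libraries) is the normal condition without 6-OHG, the Mod group (n = 5) was held at 8000 m for 24 h without 6-OHG, and the 6-OHG group (n = 4) had the same exposure with 6-OHG. The compound is given in the labels only by this code, with no dose or route, and the brain region is not named. All 3 groups share strain, sex and age, and every Mod and 6-OHG library carries the altitude exposure. The labels do not say whether each replicate is its own animal. P-values therefore describe the spread among these libraries alone, and that spread may be technical. In bulk tissue, fewer cells of a type and less RNA per cell cannot be told apart.

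The mitochondrial genome is a small circle present in many copies per cell. It encodes core subunits of respiratory complexes I, III, IV and V, together with the rRNAs and tRNAs needed to translate them, while all other subunits and every factor for its replication, transcription and translation are encoded in the nucleus. Both strands are transcribed as long precursors, from which the tRNAs are cut out and thereby release the mRNAs and rRNAs between them. Neurons depend on oxidative phosphorylation for most of their ATP, and brain is among the tissues richest in mitochondrial transcripts.

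Values are FPKM, fragment numbers scaled by gene length and by the mapped fragments of the library. They allow levels of different genes to be compared, within the limits given below for genes with nuclear copies, tRNA genes and rRNA genes. Neuron markers summed to 831 to 960 FPKM in Con, 806 to 875 in Mod and 817 to 952 in 6-OHG, with 0 of 10 markers at 0. The sums of 3 of the 4 Con libraries lay above every Mod sum. Other cell types differed with the groups. Of 6 endothelial markers, 5 were called higher and 1 lower in Mod against Con, where their sum was 44.1 to 53.9 FPKM in Con and 76.5 to 89.4 in Mod. Their sum was 64.1 to 81.3 FPKM in 6-OHG, with 0 of 6 at 0. Of 6 microglial markers, 4 were called lower in 6-OHG against Con, with sums of 55.3 to 67.7 FPKM in Con, 44.9 to 55.0 in Mod and 34.0 to 54.9 in 6-OHG. Sums of 8 striatal markers ranged from 65.1 FPKM in 6-OHG replicate 2 to 593 in Mod replicate 3, and sums of 6 choroid plexus markers from 4.50 in 6-OHG replicate 2 to 696 in Con. Liver markers also differed. Of 5 tested, Alb, Apoa1, Apoa2 and Fabp1 were called lower in Mod and in 6-OHG, each against Con (medians of the 5 log2 changes -1.93 and -2.66). The 7 liver markers other than Ttr, which the choroid plexus list also holds, summed to 31.4 to 45.6 FPKM in Con, 0.177 to 29.3 in Mod and 0.405 to 0.676 in 6-OHG. Of 5 red cell markers, the globin gene Hba-a2 was called lower in 6-OHG against Mod and Hbb-bt in 6-OHG against Con (medians of the 5 log2 changes -1.30 and -1.35). Their sums were 108 to 357 FPKM in Con, 109 to 520.1 in Mod and 40.9 to 176 in 6-OHG. Con replicate 4 and 6-OHG replicate 2 were the libraries least like their groups, with a mean correlation to the other libraries of the group, across genes, of 0.969 and 0.963 against 0.974 to 0.983 for the others. The part of these differences in the mitochondrial values was not tested.

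Mitochondrial genes made up a large share of all brain transcripts in every group. Their share of the FPKM sum was 20.6%, 23.2%, 21.5% and 26.5% in the 4 Con libraries. In the 5 Mod libraries it was 22.8%, 28.7%, 24.3%, 23.0% and 26.4%, and in the 4 6-OHG libraries 23.5%, 23.0%, 25.6% and 24.0%. The means were 22.9% ± 2.58 (SD, n = 4) in Con, 25.0% ± 2.52 (n = 5) in Mod and 24.0% ± 1.13 (n = 4) in 6-OHG, and the ranges of the groups overlapped. The 13 mRNA genes alone took 18.1% to 25.7% of the sum, the 2 rRNA genes 1.24% to 1.97% and the 22 tRNA genes 0.790% to 1.38%.

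The mRNA genes spanned a wide range of levels. By mean over the 13 libraries, mt-Co1, the catalytic subunit of cytochrome c oxidase, was highest at 12296 FPKM. It was followed by the ATP synthase subunits mt-Atp6 (6310.5 FPKM) and mt-Atp8 (6006), cytochrome b, mt-Cytb (5734), the complex I subunit mt-Nd1 (5683) and the oxidase subunit mt-Co2 (5476). The oxidase subunit mt-Co3 had a mean of 4682 FPKM, and the complex I subunits mt-Nd4, mt-Nd2, mt-Nd4l, mt-Nd6 and mt-Nd5 had 3754, 3318, 2559.9, 2384 and 2309. The lowest mRNA gene was mt-Nd3, also of complex I, at 998 FPKM. The rRNA genes lay in the lower part of that range, with 2358 FPKM for mt-Rnr1, the 12S rRNA of the small ribosomal subunit, and 2165 for mt-Rnr2, the 16S rRNA of the large one. Some neighbours in the order of these 15 levels were closer together than the smallest SD between libraries of a group, as mt-Cytb and mt-Nd1 (51 FPKM apart, SD 256 or more) and mt-Nd6 and mt-Rnr1 (26 apart, SD 105 or more). Others were further apart than the largest SD of a group, as mt-Co1 and mt-Atp6 (5986 apart, SD up to 2000) and mt-Rnr2 and mt-Nd3 (1167 apart, SD up to 385). The plot of FPKM by gene shows the spread of the libraries within each group.

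**Figure D1:**
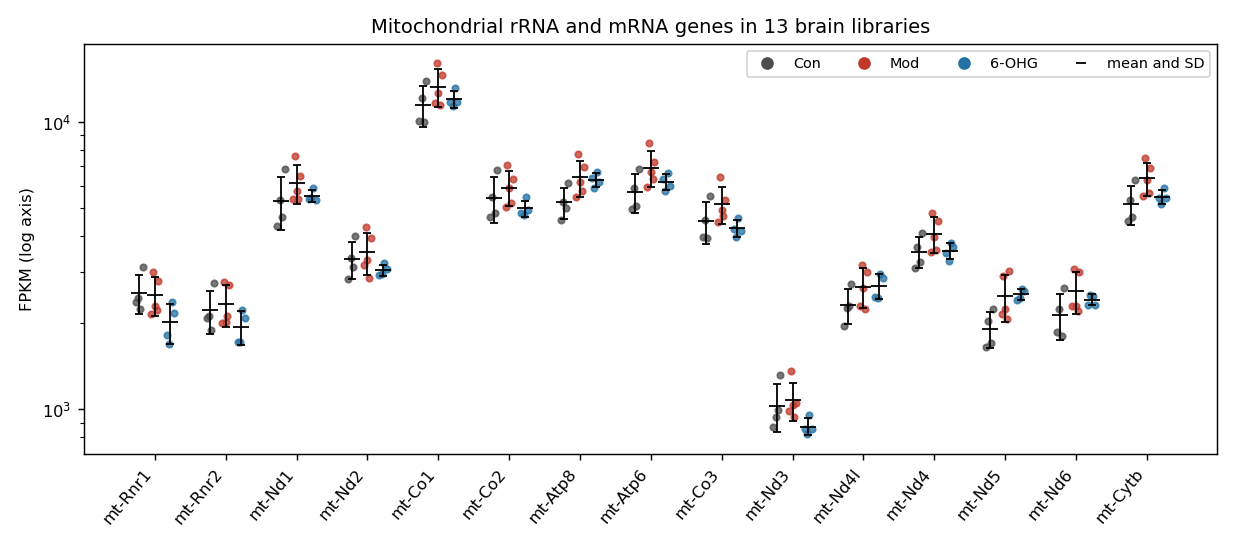
FPKM (log axis) of the 2 rRNA and 13 mRNA genes in genome order, 1 point per library. Colour marks the group and a bar the group mean and SD. The values run from 823 FPKM for mt-Nd3 to 16041 for mt-Co1, and the 3 groups overlap for every gene shown other than mt-Nd5, where the 6-OHG libraries lie above the Con libraries.

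A single library was often the highest of its group for most genes. Con replicate 4 had the highest Con value for all 13 mRNA genes, both rRNA genes and all 22 tRNA genes. Mod replicate 2 had the highest Mod value for 12 of 13 mRNA genes, both rRNA genes and 16 of 22 tRNA genes. In 6-OHG, replicate 3 was highest for 12 of 13 mRNA genes and replicate 2 for 14 of 22 tRNA genes, so in that group the mRNA and tRNA maxima lay in different libraries.

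Part of the mitochondrial genome has a near-identical copy in the nucleus, which bears on how the values of its genes can be read. The 7 predicted genes on chromosome 1, between positions 24611535 and 24616197 of GRCm38, were aligned to mt-Co1, mt-Co2, mt-Atp6, mt-Co3, mt-Nd3, mt-Nd4l and mt-Nd4. They are annotated as unprocessed pseudogenes on the minus strand, differ from the mitochondrial genes at 2 of 4140 aligned bases, and 5 of the 7 have no difference. The aligned segments fall between positions 6390 and 11042 of the mitochondrial genome, and cover mt-Co1 and mt-Nd4 only in part. The genes mt-Ts1, mt-Td, mt-Tk, mt-Tg and mt-Tr, and mt-Atp8 up to its overlap with mt-Atp6, lie between these segments, and their match to the nuclear copy was not measured.

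The copies carried nearly the same FPKM as the genes they match. Over the 13 libraries, the median ratio of copy to mitochondrial gene was 1.05 for Gm10925 and mt-Atp6, 0.987 for Gm28437 and mt-Co3, 1.05 for Gm28438 and mt-Nd3, 0.966 for Gm28661 and mt-Co2 and 0.993 for Gm10222 and mt-Nd4l. The copies of only part of a gene had lower ratios, 0.657 for Gm28439 and mt-Nd4 and 0.331 for Gm29216 and mt-Co1. More divergent copies were near the bottom of the scale. Gm13340, on chromosome 2 and 97.6% identical to mt-Co1, had 4.49 to 10.7 FPKM, and Gm13341, 95.9% identical to mt-Co2, had 9.28 to 13.4. How reads that match both places were counted is not given in the sources used here, so the levels of the genes matched, and of those that lie between them, are uncertain. The chromosome 1 copies took a further 7.99% to 11.1% of the FPKM sum. None of the 9 copies tested was called in any of the 3 comparisons.

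**Figure D2:**
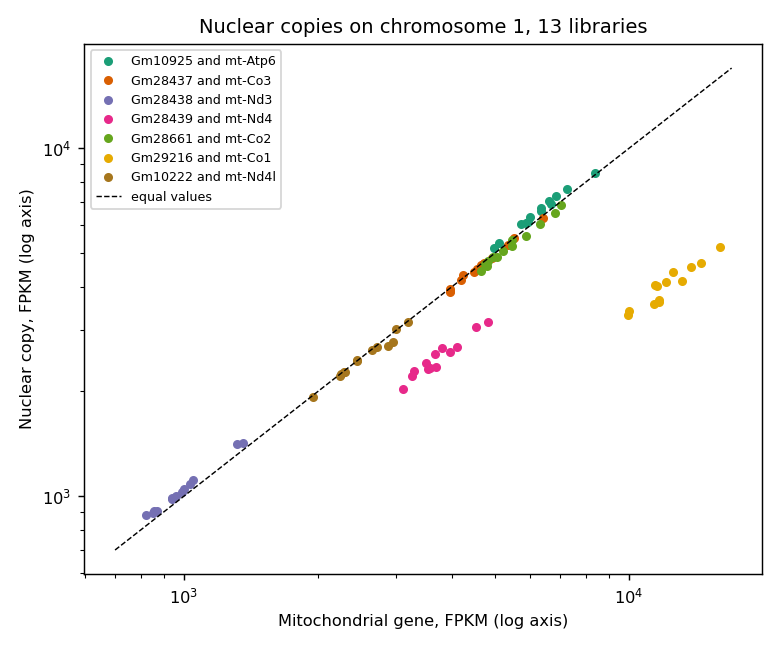
FPKM of 7 nuclear copies on chromosome 1 (vertical, log axis) against FPKM of the mitochondrial gene each matches (horizontal, log axis), 1 point per library and gene, with a dashed line at equal values. The copies of mt-Atp6, mt-Co3, mt-Nd3, mt-Co2 and mt-Nd4l lie on or near the line, with median ratios of 0.966 to 1.05, and those of mt-Nd4 and mt-Co1 lie below it.

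The effect of the altitude exposure was addressed by Mod against Con. No mitochondrial gene passed the test, in which differences of group means of log2(FPKM + 1) were fitted with limma over the 13905 genes averaging 1 FPKM or more and called at an adjusted p under 0.05. Of the 36 mitochondrial genes tested, 0 were called higher and 0 lower, against 14.0% and 9.81% of all genes tested. At an unadjusted p under 0.05 there were 6, of which 4 were mRNA and 2 tRNA genes. In 0 of 36 genes did the groups fail to overlap, against 22.4% of all genes tested. The scale is given as log2 change throughout, positive where the first group named is higher.

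All 13 mRNA genes had a positive difference in this comparison, from 0.07 to 0.37 with a median of 0.21, where the median of all genes tested was 0.01. This number was 11 with FPKM rescaled to equal sums over all genes and 11 with the length and GC trend removed (median 0.12). Without Con replicate 1 it was 12, and without Mod replicate 2 it was 11. It was 7 with quantile normalization, counting the median gene, whose difference of 1.8e-15 is rounding error. With equal sums over the mitochondrial mRNA genes it was 5. By construction the former fixes the top ranks, held by mitochondrial genes, and the latter the sum of these genes. Neither can show whether the sign holds. The largest value was that of mt-Nd5, a membrane subunit of complex I (0.37, SE 0.13, adjusted p = 0.0556). It was followed by mt-Cytb (0.30, adjusted p = 0.0850), mt-Atp8 (0.29, 0.0889), mt-Atp6 (0.28, 0.114) and mt-Nd6, a complex I subunit encoded on the other strand (0.27, 0.161). The smallest were those of mt-Nd3 and mt-Nd2, both 0.07. By complex, the median was 0.21 over 7 genes of complex I, 0.20 over 3 genes of complex IV and 0.28 over 2 genes of complex V, and the 1 gene of complex III, mt-Cytb, is given above.

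The values of mt-Cytb show the overlap. It had 4514, 5334, 4649 and 6264 FPKM in Con and 5538, 7492, 6286, 5642 and 6879.5 in Mod. Con replicate 4 lay within the Mod range, while the other 3 Con libraries lay below every Mod library. Without Con replicate 4, 6 mitochondrial genes were called higher in Mod (mt-Nd5, mt-Cytb, mt-Atp6, mt-Atp8, mt-Nd6 and the threonine tRNA gene mt-Tt), and the mRNA median was 0.31. That is 6 of 36 mitochondrial genes, beside 1950 of all 13905 genes tested in that fit. Without Mod replicate 2, 0 mitochondrial genes were called higher and mt-Ti and mt-Tq were called lower, beside 1738 and 1055 of all genes tested. The mRNA median was then 0.14, as it also was with FPKM rescaled to equal sums.

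The tRNA genes had differences of both signs. Of the 21 tested, 7 had a positive and 14 a negative difference in Mod against Con, with a median of -0.10. Without Con replicate 4, 16 of 21 were positive and the median was 0.19. It was -0.16 and -0.24 without Con replicates 1 and 3, and -0.04, -0.20 and -0.04 without Mod replicates 1, 2 and 3. With the length and GC trend removed it was -0.30, with 2 of 21 positive. The lowest values were those of mt-Ti, mt-Tq and mt-Tm, which lie side by side in the genome (-0.64, -0.61 and -0.45, adjusted p = 0.142, 0.0696 and 0.129). The highest was that of the serine tRNA gene mt-Ts1 (0.22, 0.210). The rRNA genes stood at -0.03 for mt-Rnr1 (adjusted p = 0.908) and 0.07 for mt-Rnr2 (0.774).

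**Figure D3:**
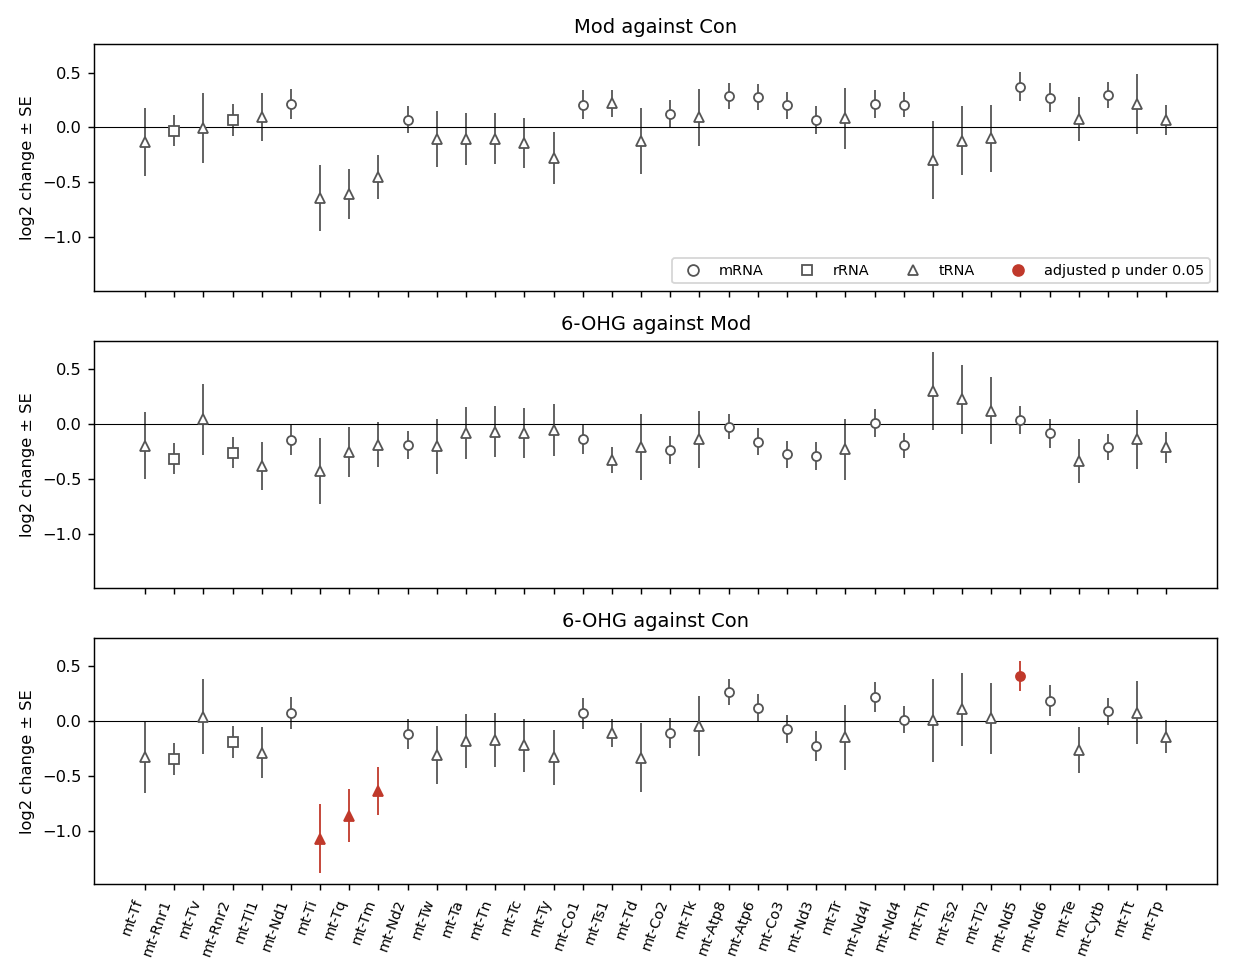
Differences in group means of log2(FPKM + 1) with their standard errors for the 36 mitochondrial genes tested, in genome order, in 3 panels for the 3 comparisons. Circles are mRNA, squares rRNA and triangles tRNA genes, and filled red marks have an adjusted p under 0.05. These are absent from the upper panels and in the lowest one are mt-Ti, mt-Tq and mt-Tm below 0 and mt-Nd5 above it.

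The effect of 6-OHG under the same exposure was addressed by 6-OHG against Mod. No mitochondrial gene passed the test here either. Of 36 genes, 0 were called higher and 0 lower, against 6.98% and 8.35% of all genes tested, with 4 at an unadjusted p under 0.05. In 0 of 36 were the groups apart, against 15.9% of all genes tested. Most differences were negative, in 11 of 13 mRNA genes (median -0.16), 2 of 2 rRNA genes (median -0.28) and 17 of 21 tRNA genes (median -0.18), where the median of all genes tested was -0.02. Without Mod replicate 2 the medians were -0.08 for the mRNA and -0.10 for the tRNA genes, with 9 of 21 tRNA genes positive. The tRNA median was also -0.09 without 6-OHG replicate 1 and -0.12 without 6-OHG replicate 3. With equal sums over all genes the medians were -0.05 for the mRNA, -0.18 for the rRNA and -0.08 for the tRNA genes, with 8 of 21 tRNA genes positive. The mRNA median was -0.06 with the length and GC trend removed and -0.07 with equal sums over nuclear genes, where the tRNA median was -0.10.

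The lowest adjusted p in 6-OHG against Mod was that of mt-Ts1 (log2 change -0.32, SE 0.12, adjusted p = 0.0895). It had 767, 1077, 848, 790.4 and 944 FPKM in Mod and 692, 665, 772 and 684 in 6-OHG. The highest 6-OHG library, replicate 3, lay just above the lowest Mod library. Other low values were those of mt-Nd3 (-0.29, adjusted p = 0.139), mt-Rnr1 (-0.31, 0.148) and mt-Co3 (-0.27, 0.158). The mRNA genes with a positive value were mt-Nd5 (0.04, 0.874) and mt-Nd4l (0.01, 0.965).

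The gene mt-Ts1 lies on the minus strand and overlaps the end of mt-Co1, so its level was also set against that gene within each library, a ratio chosen after its values were seen and given with no test. The FPKM of mt-Ts1 was 6.33% to 6.85% of that of mt-Co1 in Con and 6.50% to 6.92% in Mod. In 6-OHG it was 5.85% to 5.93%, below every library of the other groups. The strand setting of the counting is not given in the sources used here, so reads of a gene and of a partner on the opposite strand cannot be told apart.

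The third comparison, 6-OHG against Con, holds the exposure and 6-OHG together. It shares its Con libraries with the first comparison and its 6-OHG libraries with the second. Here 4 of the 36 mitochondrial genes passed the test. The mRNA gene mt-Nd5 rose, and the tRNA genes mt-Ti, mt-Tq and mt-Tm, which neighbour each other, fell. That is 1 called higher and 3 lower, against 16.3% and 14.4% of all genes tested. For 3 of 36 (mt-Nd5, mt-Ti and mt-Tq) the groups did not overlap, against 28.1% of all genes tested, so called genes were not more frequent here than in the whole table. The other mRNA genes had values from -0.22 (mt-Nd3) to 0.27 (mt-Atp8), and 9 of 13 mRNA genes were positive with a median of 0.08. The median of all genes tested was 0.00. The mRNA median was 0.01, 0.02 and 0.18 without Con replicates 1, 3 and 4, 0.04 without 6-OHG replicate 3 and 0.13 with equal sums over nuclear genes.

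The gene mt-Nd5 spans positions 11742 to 13565 of the mitochondrial genome on the plus strand and encodes one of the proton-pumping membrane subunits of complex I. Its end overlaps that of mt-Nd6, at 13552 to 14070 on the minus strand. The last 60 bases of both, from the GENCODE M21 transcripts on GRCm38, are shown because the overlap, in capitals, is the same stretch read in opposite directions.

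mt-Nd5: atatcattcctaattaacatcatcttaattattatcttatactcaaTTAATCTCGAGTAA
mt-Nd6: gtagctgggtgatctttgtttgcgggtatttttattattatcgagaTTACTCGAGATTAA

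In Con, mt-Nd5 had 1653, 2026, 1699.7 and 2228 FPKM. In 6-OHG it had 2393, 2444, 2627 and 2577. Every 6-OHG library was above every Con library, while the Mod libraries, at 2139.8, 2919, 2231, 2061 and 3017 FPKM, overlapped both groups. The means were 1902 ± 273 (SD, n = 4) in Con, 2474 ± 457 (n = 5) in Mod and 2510.3 ± 109.8 (n = 4) in 6-OHG, a 1.32-fold difference between 6-OHG and Con (log2 change 0.41, SE 0.14, adjusted p = 0.0381). The call ended without any 1 of Con replicates 1, 2 and 3 (adjusted p = 0.104, 0.0515 and 0.0970) or 6-OHG replicates 1, 2, 3 and 4 (0.0580, 0.0553, 0.0796 and 0.0777). It held in 17 of 28 alternative fits, over which the adjusted p ranged from 0.000992 to 0.298. The 28 include fits without a Mod library, which leave the difference unchanged for this and every other gene in this comparison. The lowest adjusted p came with quantile normalization, which fixes the top ranks.

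For mt-Nd6 the log2 change in 6-OHG against Con was 0.19 (adjusted p = 0.326). It had 1864, 2232, 1797 and 2637 FPKM in Con and 2315, 2507, 2483 and 2312 in 6-OHG, and Con replicate 4 was the highest of these 8.

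The genes mt-Ti, mt-Tq and mt-Tm encode the tRNAs for isoleucine, glutamine and methionine and lie between mt-Nd1 and mt-Nd2. They occupy positions 3706 to 3774, 3772 to 3842 and 3845 to 3913, with mt-Tq on the minus strand and the others on the plus strand. Their sequences, from the same GENCODE transcripts, are shown because they are the tRNA genes called. The last 3 bases of mt-Ti and of mt-Tq, in capitals, are the stretch in which these genes overlap on opposite strands.

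mt-Ti: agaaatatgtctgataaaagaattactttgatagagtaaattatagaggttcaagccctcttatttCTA
mt-Tq: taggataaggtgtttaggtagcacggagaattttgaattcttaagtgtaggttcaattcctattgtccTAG
mt-Tm: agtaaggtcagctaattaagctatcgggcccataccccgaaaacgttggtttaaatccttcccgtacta

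The level of mt-Ti was 39.4, 37.8, 40.8 and 88.1 FPKM in Con. It was 25.3, 55.5, 26.1, 19.0 and 37.7 in Mod and 18.0, 21.5, 22.8 and 28.8 in 6-OHG. All 6-OHG libraries lay below all Con libraries, and Con replicate 4 stood far above the other Con libraries. The means were 51.5 ± 24.4 (SD, n = 4) in Con and 22.8 ± 4.52 (n = 4) in 6-OHG, and mt-Ti fell by 1.07 on the log2 scale (SE 0.32, adjusted p = 0.0222). The call ended without Con replicate 4 (log2 change -0.78, adjusted p = 0.0523) and without 6-OHG replicate 1 (-0.96, 0.0609), and held in 23 of 28 alternative fits (adjusted p = 0.00325 to 0.0829).

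The level of mt-Tq was 76.0, 77.3, 90.6 and 155 FPKM in Con and 48.6, 54.4, 51.2 and 54.5 in 6-OHG. In Mod it was 51.2, 90.7, 62.3, 42.3 and 76.0. The 6-OHG libraries were all below the Con libraries and close to each other, at 52.2 ± 2.86 (SD, n = 4) against 99.8 ± 37.6 (n = 4) in Con. It fell by 0.86 on the log2 scale (SE 0.24, adjusted p = 0.0166), and this call held in 28 of 28 alternative fits (adjusted p = 0.00194 to 0.0464). Fits without a Mod library left the difference itself unchanged. Without Con replicate 4, the highest Con library, the log2 change shrank to -0.63 (adjusted p = 0.0342).

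The level of mt-Tm was 154, 179, 201 and 324 FPKM in Con, 129, 192, 158, 112 and 175 in Mod and 119, 159, 123 and 132 in 6-OHG. Here 6-OHG replicate 2 lay above Con replicate 1, so the groups overlapped. The gene fell by 0.63 on the log2 scale (SE 0.21, adjusted p = 0.0395). The call held in 18 of 28 alternative fits (0.00776 to 0.0957) and ended in 6 of the fits without 1 library. Without Con replicate 4 the log2 change shrank to -0.42 (adjusted p = 0.0885). It stayed between -0.64 and -0.58 without Con replicate 3 (adjusted p = 0.0687), Mod replicate 3 (0.0505) or 6-OHG replicate 1, 3 or 4 (0.0931, 0.0835 and 0.0720).

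Set against mt-Nd2, the mRNA gene that follows them, these tRNA genes had their highest mean levels in Con. As a percentage of the FPKM of mt-Nd2, mt-Ti was 1.1 to 2.2 in Con, 0.667 to 1.29 in Mod and 0.613 to 0.936 in 6-OHG. For mt-Tq the means were 2.94 ± 0.676 (SD, n = 4), 1.80 ± 0.250 (n = 5) and 1.71 ± 0.112 (n = 4), and for mt-Tm 6.32 ± 1.30, 4.33 ± 0.342 and 4.37 ± 0.684. These ratios do not depend on the scaling of a library. The Con values of mt-Tq, 2.30% to 3.88%, lay above every Mod value and above those of 6-OHG, 1.59% to 1.83%, whereas for mt-Ti the Con and Mod ranges overlapped because of Mod replicate 2 (1.29%). They were added after the values were seen and carry no test.

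**Figure D4:**
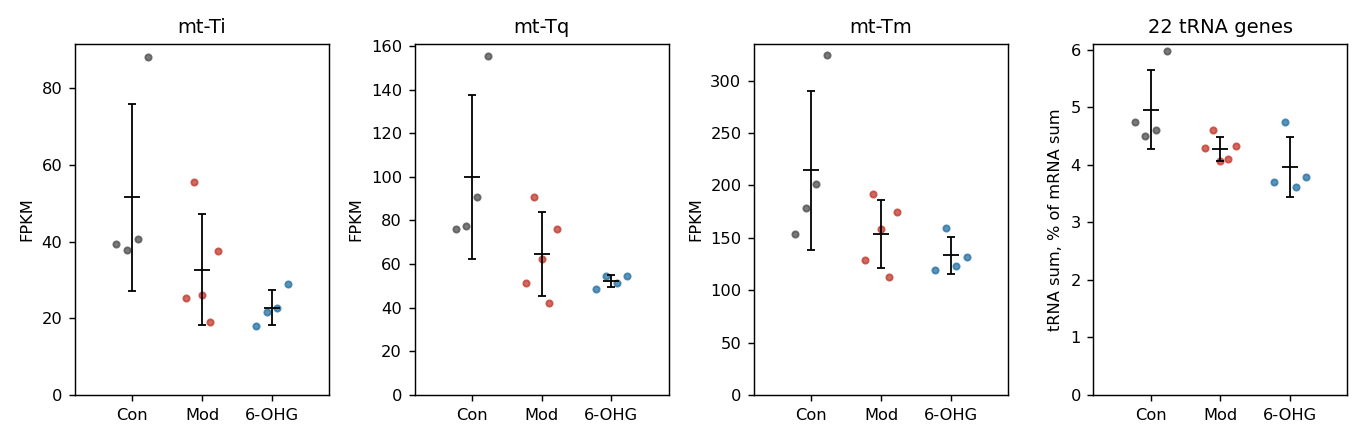
FPKM (axes from 0) of mt-Ti, mt-Tq and mt-Tm in each library by group, with a bar for the group mean and SD. A further panel shows the sum of the tRNA genes as a percentage of the mRNA sum. The 6-OHG libraries of mt-Ti (18.0 to 28.8) and mt-Tq (48.6 to 54.5) lie below all Con libraries, those of mt-Tm overlap, and Con replicate 4 is the highest point for each gene.

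The remaining tRNA genes were not called in any comparison. A tRNA gene is 59 to 75 bases long, shorter than a single read of 150 bases, so its FPKM rests on reads that extend beyond it or on short fragments. Their mean levels ranged from 0.891 FPKM for mt-Tg, the glycine tRNA gene, which missed the minimum of 1 and was not tested, to 791 for mt-Ts1. The 8 tRNA genes on the minus strand had means of 61.8 to 791 FPKM with a median of 103. The 14 on the plus strand had 0.891 to 263 with a median of 22.4. On the minus strand the highest after mt-Ts1 was the glutamate tRNA gene mt-Te (647 FPKM), and on the plus strand the leucine tRNA gene mt-Tl1 (263) and mt-Tm (166). Minus-strand tRNA genes lie opposite the precursor that carries most mRNAs, and without a stated strand setting these reads cannot be assigned to a strand.

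Of the 21 tRNA genes tested, 16 had a negative difference in 6-OHG against Con, with a median of -0.18. Without Con replicate 4 the sign turned, with 12 of 21 positive and a median of 0.04. The median was -0.34 without Con replicate 3 and -0.32 without 6-OHG replicate 2. With the length and GC trend removed, 0 of 21 were positive and the median was -0.45. The sum of the 22 tRNA genes was 4.75%, 4.50%, 4.60% and 5.97% of the mRNA sum in Con. It was 4.29%, 4.60%, 4.06%, 4.09% and 4.32% in Mod, and 3.69%, 4.74%, 3.61% and 3.79% in 6-OHG. The highest library of each group was Con replicate 4, Mod replicate 2 and 6-OHG replicate 2, and the groups overlapped.

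Neither rRNA gene passed the test. The 12S gene mt-Rnr1 had 2364, 2436, 2239 and 3125 FPKM in Con, 2154, 3001, 2283, 2221 and 2802 in Mod and 1813, 1683, 2369 and 2163 in 6-OHG. The lowest values were in 6-OHG, which overlapped Con through replicate 3 and Mod through replicates 3 and 4 (6-OHG against Con, log2 change -0.34, SE 0.15, adjusted p = 0.0938). For the 16S gene mt-Rnr2 the means were 2209 ± 379 (SD, n = 4) in Con, 2317 ± 385 (n = 5) in Mod and 1931 ± 259 (n = 4) in 6-OHG (-0.19, adjusted p = 0.357). Whether rRNA was depleted or mRNA selected is not given in the sources used here, and such a step bears on these levels.

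Ratios of neighbouring genes within a library are free of its scaling and were compared by two-sided exact permutation tests over libraries, with 5 ratios in 3 comparisons and p-values adjusted over the 15 tests. None of the 15 had an adjusted p under 0.05. The smallest p the design allows is 0.0159 with 5 and 4 libraries and 0.0286 with 4 and 4, and the lowest adjusted p was 0.0595. The groups of 2 ratios were fully apart between 6-OHG and each of the others.

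These were the ratios of the overlapping gene pairs, which are read from the same mRNA. The gene mt-Atp8 (positions 7766 to 7969) shares its last 43 bases with the start of mt-Atp6 (7927 to 8607), and mt-Nd4l (9877 to 10173) shares its last 7 with the start of mt-Nd4 (10167 to 11544). Their sequences are shown with the shared stretch in capitals.

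mt-Atp8: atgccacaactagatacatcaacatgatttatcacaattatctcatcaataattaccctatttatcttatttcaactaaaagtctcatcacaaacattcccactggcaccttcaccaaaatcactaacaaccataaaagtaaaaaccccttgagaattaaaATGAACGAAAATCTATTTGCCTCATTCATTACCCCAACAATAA
mt-Nd4l: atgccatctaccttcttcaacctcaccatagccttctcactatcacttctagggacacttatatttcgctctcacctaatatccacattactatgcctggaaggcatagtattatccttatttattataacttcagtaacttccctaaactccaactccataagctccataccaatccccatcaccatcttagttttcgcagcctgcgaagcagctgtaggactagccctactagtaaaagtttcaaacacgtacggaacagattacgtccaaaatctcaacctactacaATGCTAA

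The ratio of mt-Atp8 to mt-Atp6 was 0.918, 0.894, 0.979 and 0.895 in Con and 0.922, 0.918, 0.924, 0.911 and 0.958 in Mod. In 6-OHG it was 1.01, 1.02, 1.01 and 1.03. The 6-OHG libraries were above all 9 others (log2 difference 0.14 from Mod, exact p = 0.0159, adjusted p = 0.0595, and 0.14 from Con, exact p = 0.0286, adjusted p = 0.0595). Mod and Con differed by 0.01 (exact p = 0.762).

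The ratio of mt-Nd4l to mt-Nd4 was 0.626, 0.613, 0.702 and 0.663 in Con and 0.650, 0.660, 0.667, 0.626 and 0.661 in Mod. In 6-OHG it was 0.702, 0.745, 0.775 and 0.784. The lowest 6-OHG library lay next to the highest Con library, and the groups did not overlap (log2 difference 0.20 from Mod, exact p = 0.0159, adjusted p = 0.0595, and 0.21 from Con, exact p = 0.0286, adjusted p = 0.0595). Of these genes, mt-Atp6 and mt-Nd4l are matched by a nuclear copy, mt-Nd4 in part and mt-Atp8 at its overlap with mt-Atp6, and in both pairs the shorter gene is the numerator.

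The ratio of mt-Nd6 to mt-Nd5, which lie on opposite strands, was 1.12 ± 0.0529 (SD, n = 4) in Con, 1.04 ± 0.0335 (n = 5) in Mod and 0.959 ± 0.0533 (n = 4) in 6-OHG. The 6-OHG libraries (0.897 to 1.03) lay below the Con libraries (1.06 to 1.18) with an exact p of 0.0286 (adjusted p = 0.0595), and the Mod libraries overlapped both. The ratio of mt-Rnr1 to mt-Rnr2 was 1.15 in Con, 1.08 in Mod and 1.04 in 6-OHG, and that of mt-Rnr2 to mt-Nd1, between which only the tRNA gene mt-Tl1 lies, was 0.420, 0.379 and 0.350. For both, 6-OHG lay below Con in every library (exact p = 0.0286, adjusted p = 0.0595).

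**Figure D5:**
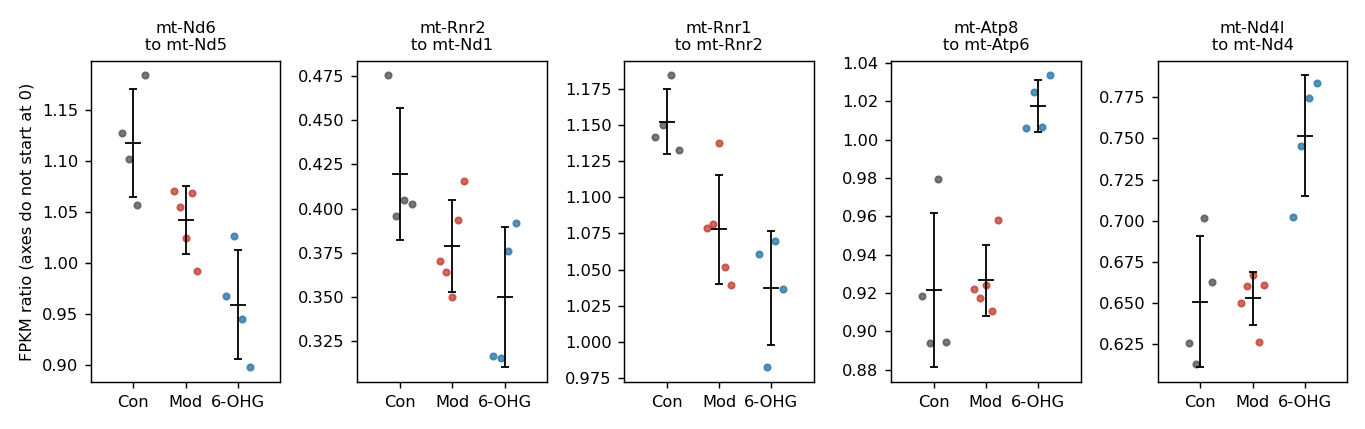
Ratios of FPKM of 5 pairs of mitochondrial genes in each library by group, with a bar for the group mean and SD. The axes do not start at 0. The 6-OHG libraries lie above all others for mt-Atp8 to mt-Atp6 (1.01 to 1.03) and mt-Nd4l to mt-Nd4 (0.702 to 0.784), and below all Con libraries for the other 3 ratios.

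The nuclear genes that build the same respiratory complexes were set beside the mitochondrial ones, without a test of the difference between the sets. Of 73 nuclear subunit genes of complexes I, III, IV and V, 0 rose and 56 fell in 6-OHG against Mod (median log2 change -0.34), and 0 rose and 51 fell in 6-OHG against Con (median -0.34). Of all genes tested, 8.35% and 14.4% were called lower in these comparisons. In Mod against Con 4 rose and 2 fell (median -0.01). Among them Ndufa2, an accessory subunit of complex I, had 41.8 ± 4.26 FPKM (SD, n = 5) in Mod and 23.7 ± 2.79 (n = 4) in 6-OHG (log2 change -0.79, adjusted p = 0.000837). Others that fell in this comparison were Uqcr11 of complex III (-0.53), Cox7c of complex IV (-0.50) and Atp5e of ATP synthase (-0.62). The 13 mitochondrial mRNA genes, of which 0 were called in 6-OHG against Mod, had a median of -0.16. The nuclear subunit genes have a median exon length of 1587 bases, the mitochondrial mRNA genes 784 and all genes tested 4104. With each library's dependence on GC content and exon length removed, 33 of the 73 were called lower in 6-OHG against Mod (median -0.23) and 46 in 6-OHG against Con (-0.27). With the replicate number also taken as a block these numbers were 3 (median -0.20) and 42 (-0.27). With the block alone 37 were called lower in 6-OHG against Mod (-0.33), and with equal sums over all genes 35 (-0.25). With equal sums over the mitochondrial mRNA genes 1 was called lower in 6-OHG against Mod (-0.21) and 20 in 6-OHG against Con (-0.41). Among all 13905 genes tested, 1161 were called lower in 6-OHG against Mod in the main fit and 452 with the trend removed. The number was 26 with trend and block, 475 with the block alone, 398 with equal sums and 4 with equal mitochondrial mRNA sums. In 6-OHG against Con these were 1998 in the main fit and 1897 with the trend removed. There 1431 were called lower with trend and block and 796 with equal mitochondrial mRNA sums.

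Genes that maintain and express the mitochondrial genome were called at shares not far from those of all genes tested. Over 4 lists of 75 such genes, 17.3% were called higher and 5.33% lower in Mod against Con, beside 14.0% and 9.81% of all genes tested. The shares were 2.67% and 8.00% in 6-OHG against Mod, beside 6.98% and 8.35%, and 17.3% and 10.7% in 6-OHG against Con, beside 16.3% and 14.4%. Of 10 tested genes of maintenance and replication, 3 rose and 1 fell in Mod against Con, 0 were called in 6-OHG against Mod, and 2 rose and 1 fell in 6-OHG against Con. The single-strand binding protein gene Ssbp1 rose from 1.78 ± 0.277 FPKM (SD, n = 4) in Con to 2.58 ± 0.145 (n = 5) in Mod (log2 change 0.37). The exonuclease gene Mgme1 fell from 1.64 ± 0.181 FPKM in Con to 0.938 ± 0.219 in Mod (log2 change -0.45). At such low levels the 1 added to FPKM before taking logs makes these changes smaller than those of FPKM itself. The topoisomerase gene Top3a rose in 6-OHG against Con (0.56). Of 12 genes of transcription, 0 were called in Mod against Con, 0 rose and 2 fell in 6-OHG against Mod, and 1 rose and 0 fell in 6-OHG against Con. Slirp, which stabilises mitochondrial mRNA, fell in 6-OHG against Mod (-0.48, adjusted p = 0.0180), and the transcription factor gene Tfb2m rose in 6-OHG against Con (0.27).

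Of 25 genes of mitochondrial RNA processing and decay, 4 rose and 0 fell in Mod against Con, 1 rose and 3 fell in 6-OHG against Mod, and 6 rose and 4 fell in 6-OHG against Con. Trnt1, which adds the CCA end to tRNAs, rose in Mod (0.22) and 6-OHG (0.22), each against Con. The gene of the oligoribonuclease Rexo2 fell in 6-OHG against Con (-0.44), and Fastkd3 rose (0.35).

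Of 28 genes of mitochondrial tRNA synthetases and translation factors, 6 rose and 3 fell in Mod against Con, 1 rose and 1 fell in 6-OHG against Mod, and 4 rose and 3 fell in 6-OHG against Con. Tufm, the elongation factor that brings aminoacyl-tRNAs to the mitochondrial ribosome, fell in all 3 comparisons. Its level was 21.6 ± 1.02 FPKM (SD, n = 4) in Con, 13.7 ± 1.65 (n = 5) in Mod and 11.0 ± 0.590 (n = 4) in 6-OHG (log2 change -0.63, -0.29 and -0.91 in the order of the comparisons). Iars2, which charges the tRNA encoded by mt-Ti, rose in Mod (0.24) and 6-OHG (0.37), each against Con, while mt-Ti fell in the latter. The ribosome recycling factor gene Mrrf fell in the same comparisons (-0.38 and -0.50), and the alanine synthetase gene Aars2 fell in 6-OHG against Con (-0.53).

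Of 12 regulators of mitochondrial biogenesis, 0 rose and 1 fell in Mod against Con, 3 rose and 0 fell in 6-OHG against Mod, and 3 rose and 1 fell in 6-OHG against Con. Of all genes tested, 14.0%, 6.98% and 16.3% were called higher and 9.81%, 8.35% and 14.4% lower in these comparisons. The calls of these regulators were not followed through the alternative fits. With the length and GC trend removed, the 970 of all genes called higher in 6-OHG against Mod became 489. The 3 that rose in 6-OHG against Mod were the coactivator genes Ppargc1a (log2 change 0.48), Ppargc1b (0.50) and Pprc1 (0.26). Ppargc1a had 5.98 ± 0.426 FPKM (SD, n = 5) in Mod and 8.85 ± 2.06 (n = 4) in 6-OHG. Pprc1 was the gene that fell in Mod against Con (-0.20). None of the 36 mitochondrial genes tested was called in 6-OHG against Mod. Of 6 RNAs retained in the nucleus, 2 rose in Mod and 2 in 6-OHG, each against Con, among them Malat1 in 6-OHG (0.49), with 0 called in 6-OHG against Mod. The part of any of these nuclear genes in the mitochondrial values was not tested.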

How the data were processed

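RNA was extracted with Trizol and read as pairs of 150 bases, per the labels' protocols. The authors deposited FPKM values, 1 column per library, and all 13 library columns were used. Per the submitters' processing notes the tools include cutadapt 1.9, HISAT2 2.2.1, StringTie 2.1.6 and featureCounts 1.5.0-p3, with builds GRCm38 and mm10. Their roles, the strand setting and the treatment of reads with several matches are not given in the sources used here. Read totals are not given either. The commonest product of FPKM and length among low values was taken as the step of 1 read. Under 10% of low values were whole multiples of that step, within 0.01. The step was 28.4 in Mod replicate 2 and 54.9 to 61.7 elsewhere, so it may not be 1 read. This cannot show whether the values rest on whole reads, and counting error is unknown.

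Symbols were matched for 37499 IDs, and 137 had none. Coordinates, exon lengths and sequences came from GENCODE M21 on GRCm38, and nuclear copies were aligned with Biopython 1.88. Values were taken as log2(FPKM + 1), the 13905 genes averaging 1 FPKM or more over the libraries were tested (36 of them mitochondrial), and limma 3.58.1 under R 4.3.3 was fitted with 1 mean per group, a variance trend and Benjamini-Hochberg adjustment over all genes tested. The procedure was tested on simulated data. Ratios were compared by exact permutation in scipy 1.17.1. Of the 28 alternative fits per comparison, those that left out Con replicate 4 and 6-OHG replicate 2 together, equalised the 13 mitochondrial mRNA sums, added nuclear copies or joined the length and GC correction to the replicate block were chosen after seeing the data. The members and the lists were chosen with earlier results of these data known. All rRNA and mRNA genes were to be named, the tRNA genes tested, and up to 4 called genes per pathway list with the smallest p, of which a selection is given. Figures were drawn with matplotlib 3.10.9.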

Additional observations from a re-analysis of the deposited data

Results flagged for a closer look

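In 20 of 132 sets of values (a gene, sum or ratio in 1 group), 1 library stood apart from the others by Dixon's test, which chance does in about 1 in 20 sets. Of these 8 were in Con replicate 4, 7 of them tRNA genes. That library was highest for mt-Tf (27.5 FPKM), mt-Tv (22.5), mt-Ti (88.1), mt-Td (62.9), mt-Tk (43.8), mt-Te (1013) and mt-Tt (54.5), and its tRNA sum was 5.97% of its mRNA sum. Mod replicate 2 was highest for mt-Tl1 (431 FPKM), mt-Tn (149.9), mt-Nd3 (1359) and mt-Tt (46.2). In 6-OHG replicate 2 the high values were mt-Tl1 (291 FPKM), mt-Ty (76.7), mt-Tk (33.2) and the tRNA sum at 4.74% of the mRNA sum. For mt-Ts2, Mod replicate 1 was low (4.80 FPKM) and 6-OHG replicate 4 high (19.6). The ratio of mt-Rnr2 to mt-Nd1 was high in Con replicate 1 (0.475), and that of mt-Atp8 to mt-Atp6 in Mod replicate 5 (0.958).

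The nuclear copies on chromosome 1, which are not mitochondrial genes by symbol, carried FPKM at a median ratio to their mitochondrial match of 1.05 (Gm10925, mt-Atp6), 0.987 (Gm28437, mt-Co3), 1.05 (Gm28438, mt-Nd3), 0.657 (Gm28439, mt-Nd4), 0.966 (Gm28661, mt-Co2), 0.331 (Gm29216, mt-Co1) and 0.993 (Gm10222, mt-Nd4l). Their values ran from 882 for Gm28438 to 8509.7 for Gm10925.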

How the results depend on the processing

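In Mod against Con, the 0 genes called higher became 1 with a 5 FPKM minimum, 1 with equal sums over all genes and 2 with quantile normalization, 0 to 6 with 1 library left out (6 without Con replicate 4, 1 without Mod replicate 1 or 4) and 7 without Con replicate 4 and 6-OHG replicate 2 together. The 0 called lower became 1 with equal sums, 3 with quantile normalization, 1 with the length and GC trend removed, 4 with equal sums over the 13 mitochondrial mRNA genes and 0 to 2 with 1 library left out. In 6-OHG against Mod, quantile normalization gave 1 higher and 2 lower, beside 1307 and 965 of all 13905 genes tested. Leaving out both named libraries gave 2 lower (mt-Tl1 and mt-Tk), beside 1689 of 13905. In 6-OHG against Con, the 1 called higher became 0 with no filter, median-of-ratios scaling, the length and GC trend removed, or that with the replicate block, 2 with equal sums over all, nuclear or mitochondrial mRNA genes, 3 with quantile normalization and 0 to 2 with 1 library left out. The 3 called lower became 1 with no filter, 6 with quantile normalization, 8 with equal mitochondrial mRNA sums and 1 to 3 with 1 library left out (1 without Con replicate 4 or 6-OHG replicate 1). Over all genes tested, 2270 of 13905 were called higher here in the main fit and 2352 with quantile normalization. With equal sums over all, nuclear and mitochondrial mRNA genes, 2115, 2823 and 395 were called higher. Called lower here were 1998 of 13905 in the main fit and 1882 of 36406 with no filter. Quantile normalization gave 1887 of 13905, and equal mitochondrial mRNA sums 796. In Mod against Con 1940 of 13905 were called higher in the main fit, 1950 without Con replicate 4 and 2298 without both libraries. There 1364 were called lower in the main fit, 1557 with quantile normalization and 1235 with equal mitochondrial mRNA sums. The cause of the changes in count was not tested. By its construction quantile normalization gives the top ranks, held by mitochondrial genes, the same values in every library, and under it mt-Rnr2 (-0.21) and mt-Co2 (-0.13) in Mod against Con and mt-Atp6 (-0.0639) in 6-OHG against Con changed sign and were called.

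The mitochondrial share of 22.94%, 25.02% and 24.02% in Con, Mod and 6-OHG was 20.25%, 22.44% and 21.73% over mRNA genes alone, 31.86%, 34.79% and 33.29% with nuclear copies added, and 21.77% to 23.72%, 24.10% to 25.59% and 23.49% to 24.35% with 1 library left out. Of 3249 gene and ratio values under alternatives, 26 lost a call, 47 gained one, 3 reversed, and 221 changed sign without a call in either fit. With 1 Con or 6-OHG library left out, the exact test of a ratio in 6-OHG against Con cannot go below p = 0.0571, so those fits say nothing about its stability.

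Same-numbered libraries did not deviate together (r = -0.483 to 0.346), so the numbers were not taken as pairs. With the replicate block, 1 mitochondrial gene (mt-Tq) was called lower in 6-OHG against Con in place of 3, and 2039, 846 and 3312 genes were called in all in place of 3304, 2131 and 4268. Depth is unknown, and levels of genes matched by nuclear copies are uncertain.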
